A study of Rattus norvegicus with 11 samples.

Results

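The microRNAs miR-122 and miR-802 were examined in the liver of rats on total parenteral nutrition (TPN) and of Control rats. They were taken by name, as every row of the deposited microRNA table whose name begins with rno-miR-122 or rno-miR-802 and a hyphen. This gave 4 rows of 1331, namely rno-miR-122-5p, rno-miR-122-3p, rno-miR-802-5p and rno-miR-802-3p, the arms being cut from the 5′ and the 3′ side of each hairpin precursor. All animals were male Sprague-Dawley rats, an outbred strain, and entered the experiment at 4 weeks of age. The 5 TPN rats received all their nutrients by vein for 7 days, and the 6 Control rats received chow together with intravenous saline (0.9%) over the same 7 days. Each library came from the whole liver RNA of 1 numbered rat, and rats are called here by group and number. Liver injury in intestinal failure is the setting that the series' title names.

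A microRNA is a short RNA that guides an Argonaute protein to messenger RNAs, which are then repressed. Recognition rests mainly on the seed, bases 2 to 8 counted from the 5′ end. miR-122 is the classic hepatocyte microRNA: it is processed from a liver-restricted transcript driven by hepatocyte transcription factors, its 5p arm is the abundant guide strand, and it is known for control of cholesterol and lipid metabolism. miR-802 is expressed in liver and pancreas, and in mouse liver it is known to rise in obesity.

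The sequences below show how the arms of miR-122 sit on 1 hairpin, and give the hairpin of miR-802. They do not show which strand the deposited rows count, as strand handling was not given. They were taken from RefSeq rat annotation (assembly GRCr8), the mature forms with the seed in capitals and the Mir122 hairpin with the 2 arms in capitals. The deposited table states no genome build, so no coordinates are given; RefSeq places Mir122 on chromosome 18 and Mir802 on chromosome 11.
rno-miR-122-5p: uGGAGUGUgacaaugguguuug
rno-miR-122-3p: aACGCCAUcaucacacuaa
Mir122 hairpin: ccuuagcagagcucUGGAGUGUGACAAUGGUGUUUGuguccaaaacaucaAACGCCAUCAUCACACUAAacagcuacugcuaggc
Mir802 hairpin: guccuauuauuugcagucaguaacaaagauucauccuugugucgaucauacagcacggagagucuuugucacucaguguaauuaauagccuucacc

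The Mir122 hairpin is 85 bases long, its 5p arm is 22 bases and starts at base 15, and its 3p arm is 19 bases and starts at base 51. Among the 693 mature rat microRNA names in the RefSeq table, each of the 2 seeds occurred in 1 name, that of the arm itself. Sequences were matched for 2 of the 4 arms, and miR-802-5p and miR-802-3p are represented by their 96-base hairpin. Mir3591, which RefSeq annotates on the opposite strand across Mir122, was not analysed here.

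Levels are counts per 1000000 reads assigned to rows of the table (CPM), from which whole read numbers were worked back. Libraries held between 7552545 and 14788757 reads in TPN and between 1404858 and 10189899 in Control. The share of reads in rows with predicted microRNA names was 0.517%, 2.0% and 0.560% in Control 5, 12 and 19, and between 0.0965% and 0.145% in the other 8 libraries. All 4 arms exceeded a mean of 1 CPM, so none was lost to the filter on low values. Every pair of libraries within a group differed by more than sampling noise, and the labels name no batch.

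miR-122-5p was the second most abundant row by mean, after miR-148a-3p, and its level differed more between rats of the same group than between the groups. It held 2.54%, 5.05%, 20.6%, 22.8% and 17.7% of the reads in TPN 6, 8, 11, 15 and 16. In Control the lowest share was 2.18% (Control 19), the median 9.69% and the highest 33.5% (Control 18). Thus 2 TPN rats lay near the low end of the Control range and the other 3 lay above the Control median, and the groups overlapped. The mean share was 13.7 ± 9.30% in TPN (SD, n = 5) and 15.7 ± 14.2% in Control (SD, n = 6), and a 2-sided exact permutation test over 462 regroupings gave p = 0.792 (0.957 after Benjamini-Hochberg adjustment over the 7 single values tested this way). In the model across the 535 rows averaging 1 CPM or more (limma-trend on log2(CPM + 1)), its log2 fold change, TPN over Control, was -0.03 ± 0.78 (SE), with a 95% interval of -1.71 to 1.65 and an adjusted p of 0.990. The interval leaves room for a change of either sign, and the sign turned under other scalings (0.45 with TMM factors, 0.62 with upper-quartile factors). In bulk liver RNA, fewer hepatocytes and less of the microRNA per hepatocyte cannot be told apart.

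The passenger arm of the same hairpin, miR-122-3p, was much scarcer. It stood at 401, 364, 230, 211 and 300 CPM in TPN 6, 8, 11, 15 and 16. In Control it ran from 314 CPM (Control 19) over a median of 381 to 579 CPM (Control 5). All 5 TPN values except those of rats 6 and 8 lay below the lowest Control value, and none reached the 3 highest Control values. The mean was 301 ± 82.2 CPM in TPN (SD, n = 5) and 420 ± 114 CPM in Control (SD, n = 6). Its log2 fold change was -0.48 ± 0.24 (SE, interval -1.01 to 0.05), with an unadjusted limma p of 0.0715 and an adjusted p of 0.296. Its direction rested on the scaling: the log2 fold change was 0.0012 with TMM factors and 0.17 with upper-quartile factors. It was -0.15 with RLE factors and -0.22 with miR-148a-3p left out of the total.

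miR-802-5p was far scarcer than miR-122-5p (mean over all rats 30.3 CPM, against 148245 CPM). Its levels were 44.0, 40.9, 18.5, 20.6 and 20.7 CPM in TPN 6, 8, 11, 15 and 16. Control rats ran from 17.2 CPM (Control 16) over a median of 25.7 to 58.7 CPM (Control 19). TPN 6 and 8 stood high and the other 3 TPN rats stood low, all inside the Control range. The mean was 28.9 ± 12.4 CPM in TPN (SD, n = 5) and 31.4 ± 15.5 CPM in Control (SD, n = 6), with a log2 fold change of -0.09 ± 0.35 (SE, interval -0.85 to 0.68) and a limma adjusted p of 0.935. This direction also flipped with the scaling, to 0.38 with TMM factors and 0.54 with upper-quartile factors.

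miR-802-3p was the scarcest of the 4 and, on the deposited scale, had the one positive fold change among them. It stood at 6.05, 7.51, 5.36, 4.31 and 4.10 CPM in TPN 6, 8, 11, 15 and 16. Control rats ran from 2.36 CPM (Control 7) over a median of 3.21 to 8.22 CPM (Control 5). All 5 TPN values lay above the Control median, and Control 5 lay above them all, so the groups overlapped. Between 4 reads (Control 12) and 111 reads (TPN 8) stood behind these values, and the limit that a count of 0 allows was 2.14 CPM in Control 12. Its mean was 5.47 ± 1.39 CPM in TPN rats and 4.33 ± 2.37 CPM in Control rats (SD, n = 5 and 6). Its log2 fold change was 0.36 ± 0.33 (SE, interval -0.36 to 1.08), and the limma adjusted p was 0.504. It was at least as high as 97.9% of the fold changes of the 280 rat-named rows, itself included, whose median was -0.26. The sign was positive in this fit and in all 25 alternatives run for it. It was 0.75 with TMM, 0.63 with RLE and 0.88 with upper-quartile factors, 0.64 with miR-148a-3p left out of the total, 0.85 in limma-voom, 0.80 in edgeR and 0.65 in DESeq2. The unadjusted p in these fits was 0.0372, 0.0545, 0.0269, 0.152, 0.0400, 0.0799 and 0.0897 in the same order, and the adjusted p ran from 0.214 to 0.813 over all the alternatives. The fits just listed also moved the median over the rat-named rows up, from -0.26 to between -0.03 and 0.31. The other alternatives reuse libraries of the same 11 rats, so the shared sign is not independent support.

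**Figure D1:**
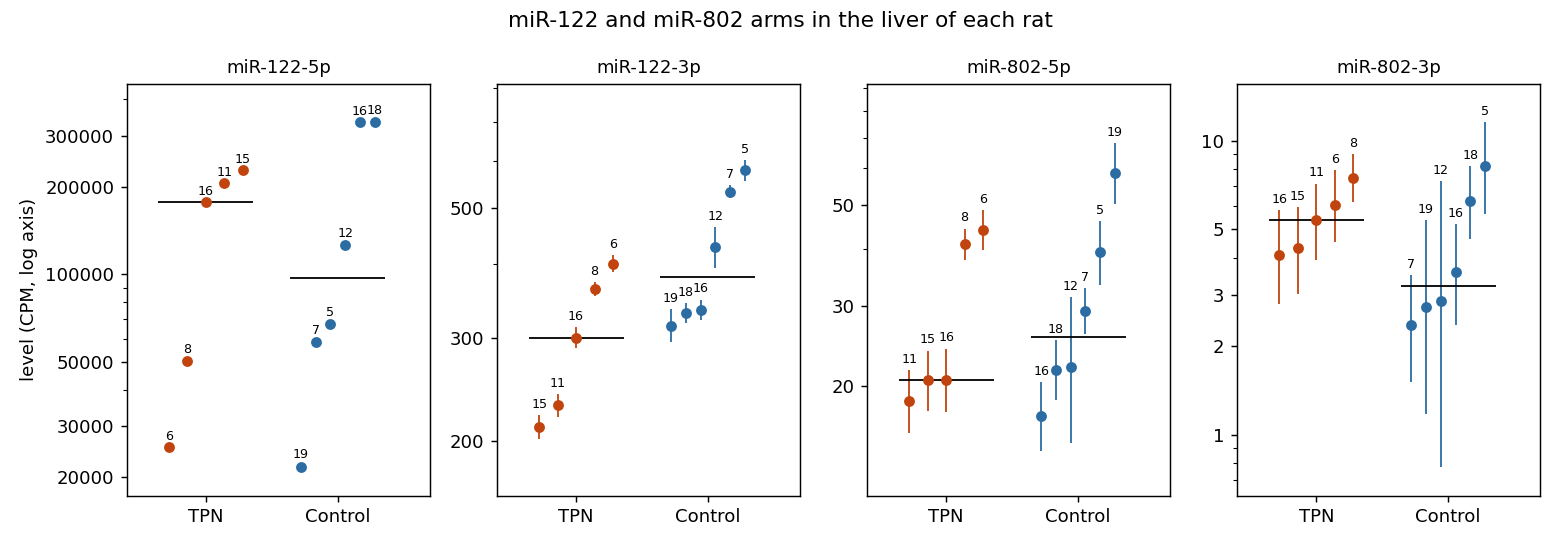
Level of each arm in each rat, in CPM on a log axis, with TPN at left and Control at right; points carry the rat number, vertical lines are exact 95% intervals for counting error and horizontal lines are group medians. The groups overlap in all 4 panels, and miR-122-5p spans 15.4-fold over the 11 rats.

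None of the 4 arms was called between TPN and Control. limma-trend called 0 of the 535 rows at an adjusted p under 0.05 (0%). At an unadjusted p under 0.05 it had 1 row higher in TPN (0.187%) and 60 rows lower in TPN (11.2%), with 0 of the 4 arms among them. The groups did not overlap in 8 rows (1.5%), and again in 0 of the 4 arms. edgeR and limma-voom also called 0 rows, while DESeq2 called 5 higher and 108 lower. In DESeq2 the adjusted p was 0.948 for miR-122-5p, 0.670 for miR-122-3p, 0.792 for miR-802-5p and 0.220 for miR-802-3p. A scaling moves all fold changes together. Over the 280 rat-named rows the median log2 fold change was -0.26 as deposited, -0.03 with miR-148a-3p left out of the total, 0.04 with RLE factors, 0.16 with TMM factors and 0.31 with upper-quartile factors. Relative to that median, miR-122-5p, miR-802-5p and miR-802-3p lay above it and miR-122-3p below it under each of the 5 scalings. As a scaling shifts all rows about alike, this position follows from the deposited fit and is no separate support.

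**Figure D2:**
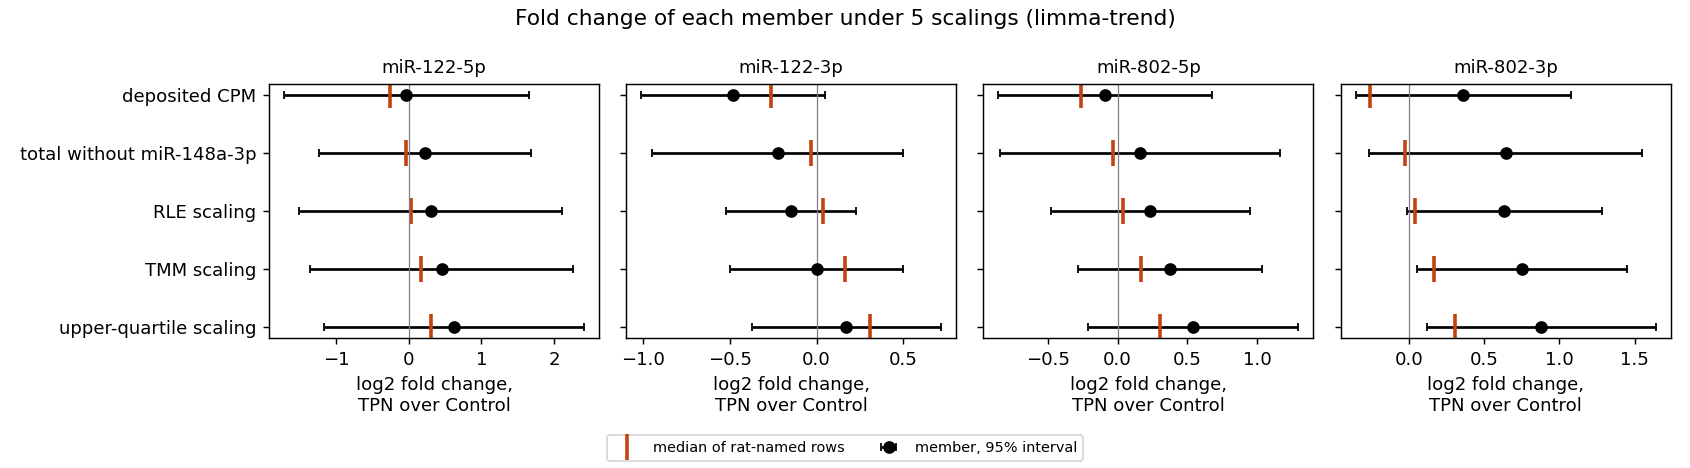
Log2 fold change, TPN over Control, of each arm (black points, 95% intervals from limma-trend) under 5 scalings, with the median of the rat-named rows as an orange bar. The points move with the bar from one scaling to the next, and the miR-802-3p point is above 0 in each.

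Both arms are cut from the same hairpin, and usually 1 of them is kept. The ratio of their reads needs no library total. For miR-122 there were 63.3, 139, 897, 1079 and 589 reads of 5p per read of 3p in TPN 6, 8, 11, 15 and 16. In Control 5, 7, 12, 16, 18 and 19 the ratio was 117, 110, 295, 999, 1014 and 69.4. Both groups thus held rats with low ratios (TPN 6, Control 19) and rats with high ones (TPN 15, Control 18). The log2 ratio was 8.44 ± 1.80 in TPN (SD, n = 5) and 7.99 ± 1.68 in Control (SD, n = 6), a difference of 0.45 with an exact permutation p of 0.649 (adjusted 0.957). As a share of both arms, 3p reads made up from 0.0926% (TPN 15) to 1.56% (TPN 6). The wide range of the ratio came with a wide range of the 5p arm: miR-122-5p varied 15.4-fold over the 11 rats and miR-122-3p 2.74-fold.

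For miR-802 the arms were far less unequal. There were 7.27, 5.45, 3.46, 4.78 and 5.03 reads of 5p per read of 3p in TPN 6, 8, 11, 15 and 16. Control 5, 7, 12, 16, 18 and 19 had 4.78, 12.4, 7.75, 4.81, 3.48 and 21.5. The log2 ratio was 2.34 ± 0.39 in TPN (SD, n = 5) and 2.89 ± 0.99 in Control (SD, n = 6), a difference of -0.55 with an exact permutation p of 0.290 (adjusted 0.957). The highest ratio, in Control 19, rested on 8 reads of 3p among 180 of both arms, a 3p share of 4.44% with an exact Clopper-Pearson 95% interval of 1.94% to 8.57%. At the other end, TPN 11 had a 3p share of 22.4% (interval 16.9% to 28.8%). Both arms together came to 34.4 ± 13.6 CPM in TPN (SD, n = 5) and 35.7 ± 15.6 CPM in Control (SD, n = 6; exact permutation p = 0.877).

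**Figure D3:**
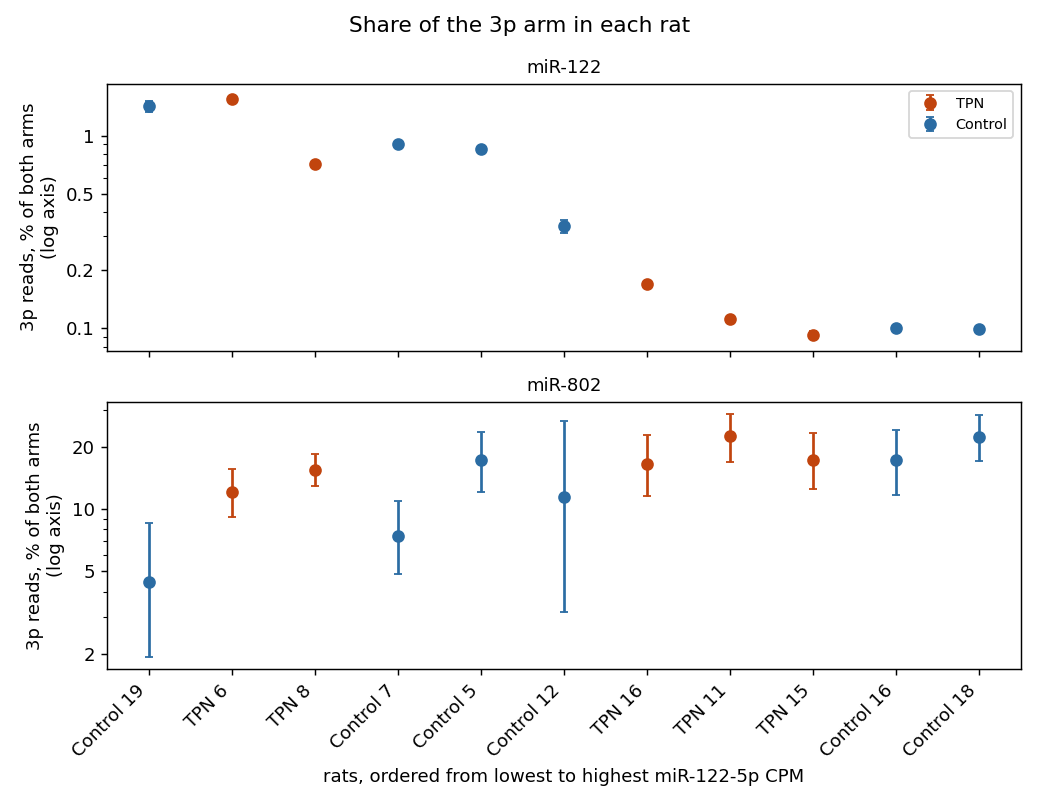
Share of 3p reads among the reads of both arms (percent, log axis) for miR-122 and miR-802 in each rat, TPN in orange and Control in blue, with exact 95% intervals; rats run from the lowest to the highest miR-122-5p level. The miR-122 share is 1.56% in TPN 6 and 0.0985% in Control 18.

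Over the 11 rats, miR-802-5p was high where miR-122-5p was low. The 3 rats with the least miR-122-5p, Control 19, TPN 6 and TPN 8, were in the same order the 3 with the most miR-802-5p, at 58.7, 44.0 and 40.9 CPM. The 5 rats with the most miR-122-5p, TPN 16, 11 and 15 and Control 16 and 18, had 17.2 to 21.7 CPM. On the log2(CPM + 1) scale Pearson's r was -0.94 (permutation p = 3e-05, 0.0003 adjusted over the 10 relations computed) and Spearman's rho was -0.89 (permutation p = 0.00049, adjusted 0.0049; n = 11). Without Control 19 and TPN 6, the rats farthest from the median of miR-122-5p, r was -0.89. Within Control alone r was -0.93 (n = 6), and with the group means removed it was -0.95. Because CPM are shares of 1 total, a row as large as miR-122-5p lowers all others when it is high: with its reads left out of the total r was -0.84, and with TMM factors -0.75. The other 9 relations, among the arms and with the library total and the share of predicted reads, had adjusted permutation p of at least 0.648 for Pearson's r. Among them, miR-122-5p and miR-122-3p, the arms of 1 hairpin, had r = -0.45 (permutation p = 0.172, adjusted 0.648). With the reads of miR-122-5p left out of the total this r was -0.02, and with TMM factors it was -0.20.

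**Figure D4:**
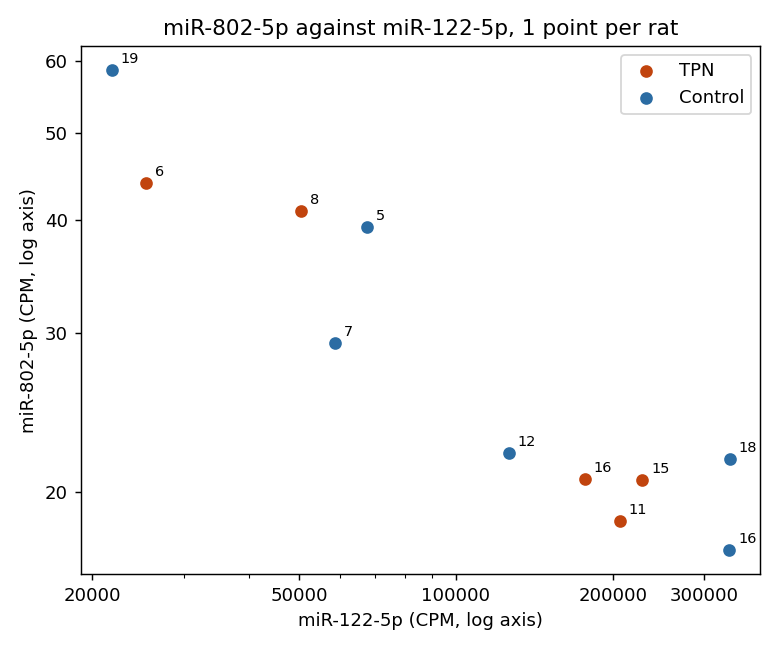
miR-802-5p against miR-122-5p in each rat (CPM, log axes), TPN in orange and Control in blue, each point labelled by rat. The points fall from Control 19 at the upper left (58.7 CPM of miR-802-5p) to Control 16 and 18 at the lower right, and both groups hold rats at the low and at the high end of miR-122-5p.

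This opposition was shared by other rows. Among the 167 rat-named rows averaging 10 CPM or more, 7 had r under -0.9 with miR-122-5p and 11 had r over 0.9, with a median of -0.21 (all r over the same 11 libraries, given as a description). On the deposited scale miR-802-5p was the third lowest, after miR-101a-3p at -0.97 and miR-101b-3p at -0.96, and before miR-30a-5p and miR-532-5p, both at -0.93. With TMM factors r was -0.93 for miR-101a-3p, -0.94 for miR-101b-3p, -0.95 for miR-30a-5p and -0.78 for miR-532-5p. miR-802-5p, at -0.75, was then the weakest of these rows. The 5 rows most like miR-122-5p were miR-671 (r = 0.98), miR-674-3p (0.96), miR-128-3p (0.96), miR-99a-5p (0.95) and miR-3559-3p (0.95). The 5 most like miR-802-5p were miR-101a-3p (0.96), miR-101b-3p (0.94), miR-30a-5p (0.92), miR-532-5p (0.91) and miR-429 (0.91).

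The levels of these rows show how far the pattern reached. miR-671 stood at 5.01, 10.01, 30.1, 27.9 and 34.2 CPM in TPN 6, 8, 11, 15 and 16, and ran from 3.75 CPM (Control 19) to 46.8 CPM (Control 16) in Control. miR-101a-3p stood at 8284, 4217, 1345, 1506 and 1722 CPM in the same TPN rats, and ran from 1306 CPM (Control 16) to 14513 CPM (Control 19) in Control. Control 19 was thus lowest for miR-671 and highest for miR-101a-3p, and TPN 6 came next in both. Neither row differed between the groups in limma (adjusted p = 0.990 for miR-671 and 0.738 for miR-101a-3p). Of the rows most like miR-122-5p, GC content was 66.7% in miR-671, 47.6% in miR-128-3p and 45.5% in miR-3559-3p. Of the most opposite rows it was 33.3% in miR-101a-3p, 38.1% in miR-101b-3p, 45.5% in miR-30a-5p and 50% in miR-532-5p. miR-122-5p itself had 45.5%, and the remaining rows of these sets had no matched sequence. Over the 251 of 279 rows with a RefSeq sequence (90.0%), Spearman's rho between the GC content and the likeness to miR-122-5p was 0.17, across rows that are not independent; the part of base composition in the pattern was not tested.

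**Figure D5:**
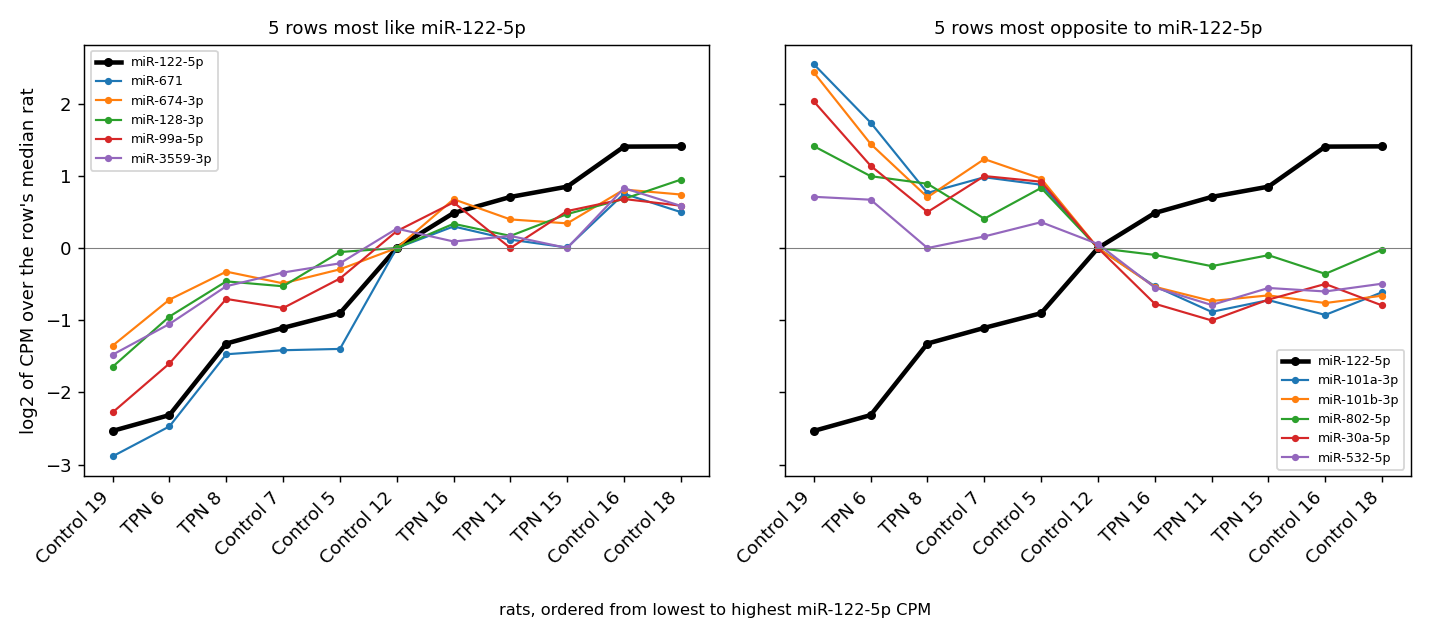
Level of the rows most like and most opposite to miR-122-5p in each rat, as the log2 of its CPM over the row's median rat; rats run from the lowest to the highest miR-122-5p level. The 2 sets cross, with miR-671 lowest and miR-101a-3p highest in Control 19.

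The rat numbers went with this order. All 4 rats numbered below 10, TPN 6 and 8 and Control 5 and 7, had miR-122-5p shares between 2.54% and 6.75%. Of the 7 numbered 10 or more, Control 19 had 2.18% and the other 6 had 12.6% to 33.5%. The labels do not say what the numbers mean, and their part in the result was not tested. The cut at 10 was drawn after these values were seen, so the fits within its parts are given as a description. The log2 fold change of miR-122-5p was -0.81 ± 0.43 (SE) among the rats numbered below 10 (2 TPN and 2 Control) and 0.61 ± 0.91 among the others (3 TPN and 4 Control), with limma adjusted p of 0.597 and 0.734. The relation with miR-802-5p had r = -0.95 among the 7 rats numbered 10 or more, and the 4 others were too few for a value.

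miR-122-5p also varied more between rats than most rows. The SD of its log2 level over the 11 rats was 1.41, wider than in 97.5% of the 280 rat-named rows, whose median SD was 0.57. It was 1.42 within TPN and 1.54 within Control. miR-148a-3p, the most abundant row, had an SD of 0.26 and varied 1.73-fold. The abundant rows miR-21-5p and miR-192-5p had SDs of 0.56 and 0.40. miR-101b-3p and miR-30a-5p, also abundant and opposite to miR-122-5p over rats, had SDs of 1.10 and 1.01 and varied 9.16-fold and 8.19-fold. The SD was 0.58 for miR-802-5p, close to that median, and lower for miR-122-3p (0.45, wider than 26.4% of rows) and miR-802-3p (0.50, wider than 37.1%). Set against miR-148a-3p in the same library, the log2 ratio of miR-122-5p was -2.47 ± 1.60 in TPN (SD, n = 5) and -2.19 ± 1.78 in Control (SD, n = 6; exact permutation p = 0.784, adjusted 0.957). The log2 ratio of miR-122-5p to miR-802-5p was 11.9 ± 2.01 in TPN and 11.8 ± 2.16 in Control (SD, n = 5 and 6; exact permutation p = 0.957, adjusted 0.957).

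Other microRNAs known from hepatocytes were compared between the groups as a list, whatever their level here. Of the 20 rows of that list, which covers miR-148a, miR-192, miR-194, miR-101a, miR-101b, miR-22, miR-378a, miR-33, miR-455 and miR-365, 16 passed the filter, 2 with a positive and 14 with a negative fold change. limma called 0 of them, and the median was -0.36, beside -0.26 over all rat-named rows, of which 58 of 280 were positive. The split turned to 9 positive and 7 negative with TMM factors and to 13 and 3 with upper-quartile factors. The most abundant, miR-148a-3p, had a log2 fold change of 0.25 ± 0.23 (SE). The row with the smallest p, miR-365-3p, had -0.85 ± 0.28 (limma adjusted p = 0.296).

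Markers of other cells that liver RNA can hold were compared in the same way, and limma called 0 rows of any list. Their signs stand beside 58 positive fold changes among the 280 rat-named rows on the deposited scale. Of the 3 measured red cell rows all had negative fold changes, with sums of 31.3 to 261 CPM in TPN against 132.8 to 801.7 CPM in Control. Erythroid miR-451-5p was both the most abundant and the smallest in p (-2.35 ± 0.63 SE, adjusted p = 0.296), and all 3 rows stayed negative under the 5 scalings. Of 9 blood and immune cell rows 1 was positive (median -0.38), miR-146a-5p being the most abundant (-0.48 ± 0.26) and miR-150-5p the smallest in p (-0.56 ± 0.25). All 7 rows of stellate cells, fibroblasts and smooth muscle were negative (median -0.43), miR-143-3p having -0.43 ± 0.26 and miR-143-5p -0.62 ± 0.23. The list of bile duct and other epithelium, the miR-200 family, had 5 of 7 rows positive (median 0.19), miR-200b-3p having 0.22 ± 0.38 and miR-200c-3p -0.83 ± 0.29. With TMM factors 5 of 9 immune rows, 4 of 7 stellate rows and 6 of 7 epithelial rows were positive, beside 183 of 280 rat-named rows.

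Across rats, the sum of the endothelial rows (miR-126a-3p and miR-126a-5p) was lowest where miR-122-5p was lowest, at 3162 CPM in TPN 6 and 2020 CPM in Control 19, and was 6849 CPM in Control 16. Between the groups, the log2 fold change was 0.0043 ± 0.39 for miR-126a-3p and -0.52 ± 0.46 for miR-126a-5p. The sum of the stellate, fibroblast and smooth muscle rows was highest in these 2 rats within their groups. It was 28086 CPM in TPN 6 and 37661 CPM in Control 19, most of it miR-143-3p (mean 21626 CPM over all rats). The sum of the other hepatocyte-rich rows, mostly miR-148a-3p, was also highest in these 2 rats within their groups. It was 786580 CPM in TPN 6 and 766070 CPM in Control 19, and lowest in Control 18 at 481800 CPM. All these sums are shares of a total that includes miR-122-5p. Any part of these cell types in the miR-122-5p order was not tested. Of rows that define tissues outside the liver, the brain microRNA miR-124-3p reached at most 0.120 CPM, and the pancreatic miR-216a-5p was at 0 in all 11 libraries. The measured brain row, miR-9a-5p, had a fold change of -0.05 ± 0.40. The pancreatic list had miR-375-3p, also found in other endocrine and epithelial cells, at 0.53 ± 0.20 (adjusted p = 0.296). Striated muscle rows summed to 11.4 to 24.7 CPM in TPN and 7.51 to 84.0 CPM in Control, the highest in Control 12, and miR-206-3p, a skeletal muscle microRNA, reached 52.7 CPM. Of 4 such rows 1 was positive, miR-499-5p having -0.10 ± 0.31 and miR-133a-3p -0.57 ± 0.55.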

How the data were processed

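Small RNA of 11 livers extracted with TRIzol was sequenced by Illumina HiSeq, according to the labels' protocols. The values are in CPM as deposited by the authors, and each column sums to 1000000. DESeq2 is named without a version or role, per the submitters' processing notes. The aligner, counting, strand handling, database and build were not given in the sources used here. Divided by the smallest value of their column, 100% of non-zero values were whole within 0.001, and these quotients were taken as reads. They were used in edgeR 4.0.16, DESeq2 1.42.0 and limma-voom, which were run as alternatives.

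The test was limma-trend (R 4.3.3, limma 3.58.1) on log2(CPM + 1), for rows averaging 1 CPM or more, over all 11 libraries with no covariate and Benjamini-Hochberg adjustment over 535 rows. A fold change on this scale understates the change of low rows. Exact permutation tests were 2-sided (462 regroupings, smallest p 0.0022), and correlations used 100000 resamples. Fits were tested on simulated data. Floors (3 reads) and Clopper-Pearson 95% intervals cover counting error only. Among pairs within a group, the closest, Control 16 and Control 18, differed by a chi-square/df of 142.

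Rows were named by rule: the 4 arms, the 5 rows with the highest and the 5 with the lowest r with miR-122-5p, the 5 with the highest r with miR-802-5p, and the most abundant and smallest-p row of each list. miR-1b, miR-124-3p, miR-206-3p and miR-216a-5p were named after their values were seen. The members and lists were chosen with earlier results of these data known. Figures were drawn with matplotlib 3.10.9.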

Additional observations from a re-analysis of the deposited data

How the results depend on the processing

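No member was called under any setting: the adjusted p of their fold changes was at least 0.182 throughout. The calls over all rows were 0 in each setting except DESeq2 (5 higher, 108 lower), the cause of which was not tested; at an unadjusted p under 0.05, leaving out 1 library gave 21 to 153 lower rows, beside 60. The log2 fold change of miR-122-5p (-0.03) was 0.45 with TMM, 0.30 with RLE and 0.62 with upper-quartile scaling, 0.23 without miR-148a-3p in the total, 0.17 in edgeR, 0.11 in DESeq2, 0.44 in limma-voom, -0.89 without Control 5, 12 and 19, -0.81 in rats numbered below 10 and 0.61 in those numbered 10 or more, and -0.48 to 0.47 with 1 library left out. That of miR-122-3p (-0.48) was 0.0012 with TMM, 0.17 with upper-quartile scaling and 0.0015 in edgeR. It was negative at -0.15 with RLE, -0.22 without miR-148a-3p, -0.13 in DESeq2, -0.0020 in limma-voom, and -0.59 to -0.36 with 1 library left out. That of miR-802-5p (-0.09) was 0.38 with TMM, 0.23 with RLE and 0.54 with upper-quartile scaling, 0.16 without miR-148a-3p, 0.40 in edgeR, 0.18 in DESeq2, 0.39 in limma-voom, 0.27 without Control 5, 12 and 19, 0.31 in rats numbered below 10 and -0.39 in those numbered 10 or more, and -0.26 to 0.11 with 1 library left out. That of miR-802-3p (0.36) stayed positive, at 0.75 with TMM, 0.63 with RLE and 0.88 with upper-quartile scaling, 0.64 without miR-148a-3p, 0.80 in edgeR, 0.65 in DESeq2, 0.85 in limma-voom, 0.19 with a pseudocount of 5, and 0.25 to 0.54 with 1 library left out.

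The difference in miR-122-5p share, TPN minus Control, was -2.002 percentage points, 1.51 without miR-148a-3p, -10.55 without Control 5, 12 and 19, and -4.71 to 1.56 with 1 library left out; for both arms the last 3 were 1.50, -10.56 and -4.73 to 1.54. For both miR-802 arms the difference was 11.4 CPM without miR-148a-3p, 7.62 without Control 5, 12 and 19, 9.67 in rats numbered below 10 and -9.25 in those numbered 10 or more, and -5.21 to 3.85 with 1 library left out. The log2 arm ratio of miR-122 differed by -0.47 without Control 5, 12 and 19, by -0.27 in rats numbered below 10, by 1.13 in those numbered 10 or more, and by 0.04 to 1.06 with 1 library left out. The ratio of miR-122-5p to miR-802-5p differed by -1.17, -1.14 and 1.02 in the first 3 of these settings and by -0.60 to 0.74 with 1 library left out. The ratio to miR-148a-3p differed by -1.38, -1.17 and 0.45 in them and by -0.79 to 0.27 with 1 library left out.

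Without Control 5, 12 and 19 (n = 8) several weak correlations turned: miR-122-5p with miR-802-3p (r = -0.15), miR-122-3p with miR-802-3p (-0.28), miR-122-5p with the library total (-0.59) and the predicted share (0.75, exact permutation p = 0.0336), and miR-802-5p with the total (0.68, exact permutation p = 0.0473) and the predicted share (-0.80, exact permutation p = 0.0145), all unadjusted. With TMM the last 2 were 0.28 and -0.26. The relation of miR-122-5p with miR-802-5p had r between -0.75 and -0.95 in the settings tried. The rat-number split and the total without miR-122-5p were chosen after seeing the data; the cause of these changes was not tested. No paired analysis was possible because the groups share 1 rat number, 16. Depth limits miR-802-3p most, at 4 reads in Control 12.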
